A study of Arabidopsis thaliana with 22 samples.

Results

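The last step in the growth of leaf 10 of Arabidopsis thaliana at ambient CO2, from rapid expansion to the fully expanded leaf, was compared in transcript levels on Affymetrix arrays. It was defined by the sample labels as the 4 arrays of fully expanded leaves (called mature here) minus the 3 arrays of expanding leaves, all at 370 ppm CO2, which are 7 of the 22 arrays of the series. The whole series holds primordia, expanding and mature leaves at 370 and at 750 ppm CO2, and its title is concerned with dark respiration of leaves, its response to growth at elevated CO2 and the stage of the leaf. All plants were wild-type Col-0. They grew in a cycle of 10 h of light at 21 °C and 14 h of dark at 18 °C, with 300 µmol of photons per square metre and second, for 7 days at 370 ppm, and were then distributed at random over 2 chambers that held the CO2 levels. The ambient leaves of both stages therefore shared a chamber and a CO2 level. Expanding and mature leaves were taken whole, while each primordia sample pooled 20 plants. Primordia arrays give a reference level here, and they also enter the common fit behind each error and p-value. The sources used here do not give plant age, the hour of harvest or the number of leaves per expanding or mature sample, and leaf stage, plant age and harvest occasion cannot be told apart. The labels number the expanding and mature samples as replicates without naming separate plants. The p-values rest on the spread between samples within all 6 groups of the series, primordia included, part of which may be technical.

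A leaf grows first by cell division and then by cell expansion, in which expansins and xyloglucan-modifying enzymes loosen the wall. Chloroplasts are built during the same period, when plastid ribosomes, RNA-processing proteins, chaperonins and the tetrapyrrole pathway that makes chlorophyll are in demand. A fully expanded leaf maintains this machinery, exports sugar as a source leaf and turns over its own proteins, in part through autophagy, in which ATG8 proteins are attached to the membrane that encloses the cargo.

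Levels are given as deposited log2 values relative to the median probe set of the same array, a change is the mean of the mature arrays minus the mean of the expanding arrays, and its error is the moderated standard error (SE) of limma. A probe set was called at a Benjamini-Hochberg adjusted p under 0.05 over all 12511 probe sets tested. At ambient CO2, 5541 probe sets were called (44.3%), of which 2464 rose (19.7%) and 3077 fell (24.6%), and the counts of each list have to be read against these shares. The excess of falls depended on the centring, since 2792 rose (22.3%) and 2774 fell (22.2%) with arrays centred on their mean, and 2763 rose (22.1%) and 2821 fell (22.5%) after quantile normalization. The median change of all probe sets was -0.03, the median size of a called change was 0.57, and 704 probe sets (5.63%) were called with a change of at least 2-fold, 279 higher and 425 lower. The groups did not overlap for 5729 probe sets (45.8%). The first principal component of the 7 arrays held 69.9% of the variance and separated the stages. Mature replicate 1 lay between the others, at 12.5 against 28.3 to 30.2 for the remaining mature arrays and -36.9 to -27.0 for the expanding arrays. Without it, 5661 probe sets were called. The 3′ minus 5′ signal of the RNA control probe sets also differed between the stages, at 0.94 to 1.14 in expanding and 0.81 to 0.94 in mature leaves with no overlap, and 4243 probe sets were called with this signal as a covariate.

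**Figure D1:**
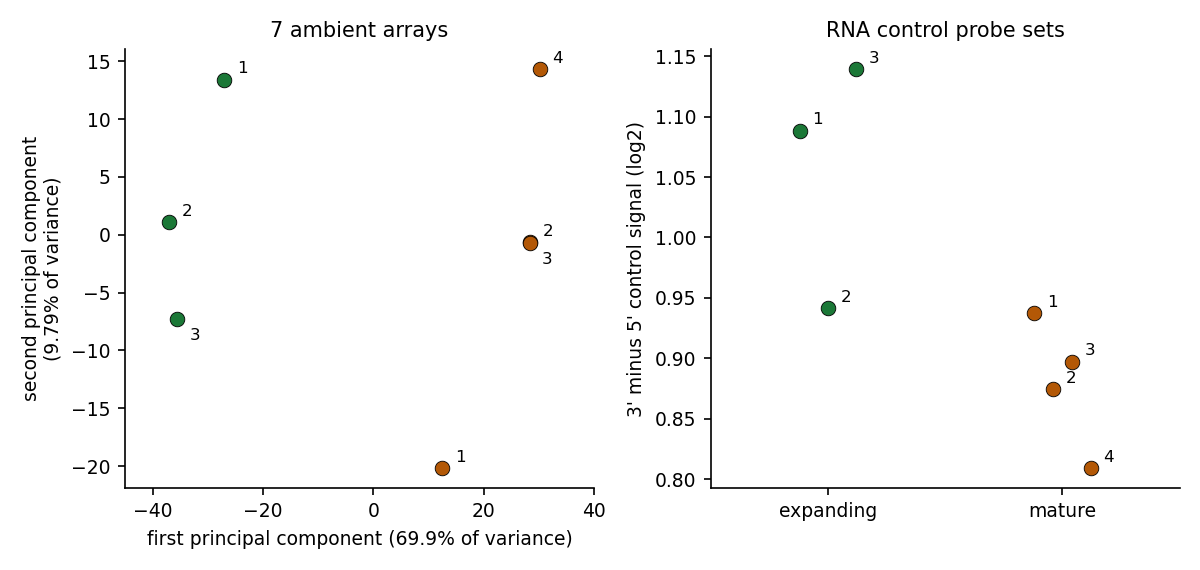
Left, the first 2 principal components of the 7 ambient arrays over all probe sets tested (expanding leaves green, mature leaves orange, replicate numbers beside the points). Right, the log2 difference between 3′ and 5′ control probe sets on each array, with the 3 expanding arrays above the 4 mature arrays.

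The 15 largest falls among probe sets with exactly 1 named gene were led by genes known in the gene tables by locus alone. AT4G29020 lay at 3.83, 4.22 and 4.20 on the expanding arrays and at 1.00, -0.81, -0.32 and -0.57 on the mature arrays. It passed from well above the array median to near or below it and changed by -4.26 ± 0.33 (SE, n = 3 and 4), a 19.2-fold lower level (limma adjusted p 2.11e-08). AT5G48490 fell by 3.65 ± 0.28, AT1G31690 by 3.23 ± 0.30 and AT1G11850 by 3.14 ± 0.27 on the log2 scale. Among the falls with a symbol, Cpn60beta2, a beta subunit of the plastid chaperonin that folds imported proteins, went from 3.50, 4.11 and 3.94 to 1.56, 0.52, 0.25 and 0.90, an 8.24-fold lower level (-3.04 ± 0.31, limma adjusted p 3.54e-07). XTH16, a xyloglucan endotransglucosylase/hydrolase of the cell wall, fell 6.95-fold and SBT1.3, a subtilisin-like protease, 6.67-fold. CYP71B22, a cytochrome P450, lay between -0.23 and -0.19 on all expanding arrays and between -3.01 and -1.74 on the mature arrays. The largest falls and rises were picked among called genes whose groups did not overlap, so the separation of the arrays follows from the selection. In each of these falls mature replicate 1 was the highest of the mature arrays.

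The 15 largest rises ranged from 3.24-fold to 8.80-fold. BCAT4, a methionine aminotransferase that opens the chain elongation of aliphatic glucosinolates, lay at 0.01, -0.61 and -0.81 in expanding leaves and at 2.24, 2.55, 2.67 and 3.20 in mature leaves. Its change was 3.14 ± 0.38 (limma adjusted p 1.86e-06) and followed a primordia mean of -3.37, so the level was higher at each later stage. MT1C, a metallothionein, a small protein that binds metal ions, went from 0.75, 0.04 and 0.67 to 2.86, 3.04, 3.22 and 2.93 (2.52 ± 0.24). APS4, an ATP sulfurylase that activates sulfate, rose 4.27-fold, from between -0.64 and -0.02 to between 1.51 and 1.99. UBC29, a ubiquitin-conjugating enzyme, rose 3.62-fold. The locus-only rises AT1G23130 and AT1G67865 reached means of 4.73 and 4.80 in mature leaves, after primordia means of -2.88 and -1.84, and rose by 1.78 ± 0.28 and 1.74 ± 0.18 at maturation. AT1G05710 differed from them, since its primordia mean of -0.05 was above its expanding mean of -2.25 and it rose by 1.82 ± 0.22 to a mature mean of -0.44.

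**Figure D2:**
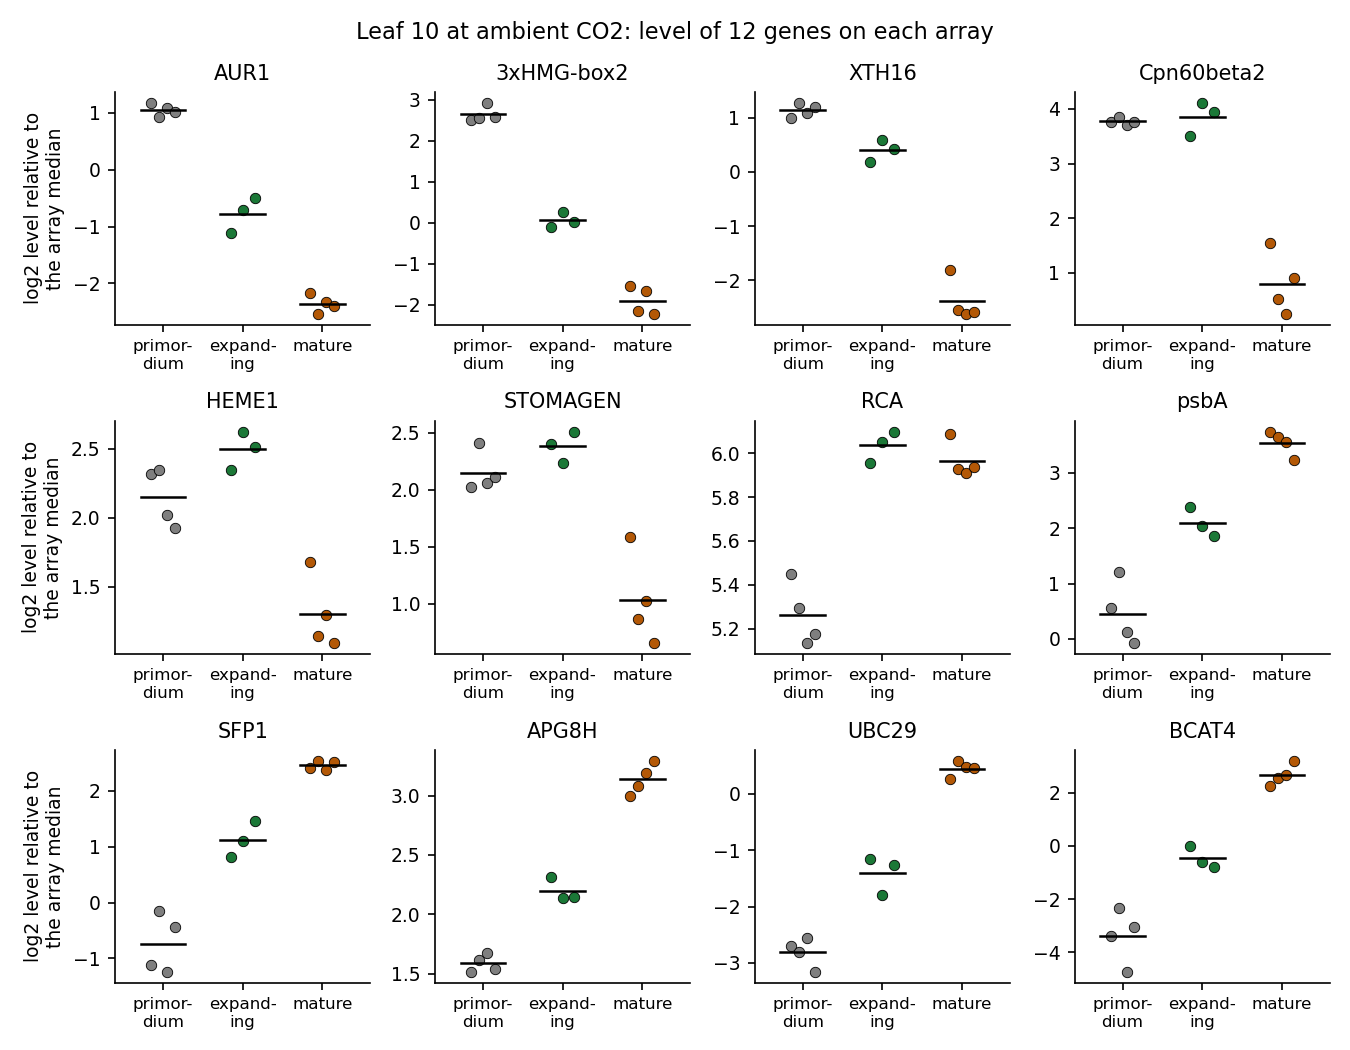
Level of 12 genes on every ambient array (log2, relative to the array median) in primordia, expanding and mature leaves, with points for arrays and lines for group means and a separate vertical scale in each panel. AUR1, 3xHMG-box2 and XTH16 were lower at each later stage, Cpn60beta2, HEME1 and STOMAGEN fell at maturation, RCA overlapped between expanding and mature leaves, and psbA, SFP1, APG8H, UBC29 and BCAT4 were higher at each later stage.

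Genes of DNA replication, mitosis and histone H2B fell, from levels that were already below those of primordia. Of 10 measured genes 8 fell and none rose, against 24.6% of all probe sets lower, with a median change of -0.64. AUR1, an Aurora kinase of mitosis, lay at -1.12, -0.70 and -0.49 in expanding and at -2.17, -2.54, -2.32 and -2.40 in mature leaves. The groups were well apart, the mature level was 3.00-fold lower (-1.58 ± 0.25, limma adjusted p 4.27e-05), and the primordia mean had been 1.05. PRL, a subunit of the MCM helicase of DNA replication, went from -0.19, -0.16 and -0.26 to -1.18, -1.39, -1.50 and -1.25, a 2.19-fold lower level. The DNA polymerase subunits POLD3 and POLA3 fell by 1.07 ± 0.19 and 0.66 ± 0.16, and BUB3.1, a spindle checkpoint protein, fell by 0.87 ± 0.15. The histone genes HTB1, HTB11 and HTB2 fell by 0.62 ± 0.14, 0.54 ± 0.10 and 0.40 ± 0.10, whereas HTB4 changed by -0.09 ± 0.12 (adjusted p 0.592). Probe sets of near-identical histone genes can share signal, so the order among the HTB genes is uncertain. SIM, an inhibitor of cyclin-dependent kinases, changed by 0.15 ± 0.10 (adjusted p 0.270). At the earlier step, from primordia to expanding leaves, all 10 of these genes had fallen, against 31.2% of all probe sets, with a median of -1.61. The 2 steps share the 3 expanding arrays, so here and below their changes are not independent. Of the 8 genes that fell at maturation AUR1, BUB3.1, POLA3 and POLD3 were dim, that is, had a mean over all 22 arrays below that of the median probe set, and 4 falls were left without dim probe sets.

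A list of chromatin and division genes was made once the values were at hand and gives no independent support. Of its 14 genes 8 were lower and none higher, against 24.6% of all probe sets lower, with a median of -0.43. Its largest change was that of 3xHMG-box2, a chromosomal protein that binds mitotic chromosomes. It lay at -0.10, 0.25 and 0.03 in expanding leaves and at -1.55, -2.16, -1.66 and -2.23 in mature leaves, 3.88-fold lower, and its paralogue 3xHMG-box1 fell by 1.07 ± 0.17. TSO1, a regulator of division and cell expansion in floral organs, fell by 0.87 ± 0.13, and the other called members of the list fell by less. With the 3′ minus 5′ control signal as a covariate, or without expanding replicate 2, 5 of the 14 were called lower. Of the 14 genes 11 were dim, and 2 falls were left without dim probe sets. Subunits of nuclear RNA polymerases, whose list was also made once the values were at hand, fell in 5 of 10 cases with none higher (median -0.44). Among them were NRPC2 of polymerase III, which fell by 0.67 ± 0.12, and NRPA2 of polymerase I, which transcribes ribosomal RNA, by 0.56 ± 0.16, though the latter was not called with the covariate (adjusted p 0.133), and all 5 were dim. PGY1, a cytosolic ribosomal protein of the large subunit, went from between 3.77 and 4.09 to between 3.08 and 3.35.

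Wall-loosening genes were lower in mature leaves in 4 of 10 cases and higher in 1, against 24.6% and 19.7% of all probe sets, with a median of -0.35. The 4 genes that fell, XTH16, EXPA15, EXPB3 and EXLA2, were all dim, so no fall was left without dim probe sets. The mean that defines dim includes the mature arrays, where these genes were lower. XTH16 was above the array median in expanding leaves, while XTH16, EXPA15 and EXPB3 were below it on all mature arrays, so their folds rest on low mature signals. XTH16 lay at 0.18, 0.59 and 0.43 in expanding and at -1.81, -2.55, -2.63 and -2.60 in mature leaves. EXPA15, an alpha-expansin, went from -0.87, -0.45 and -0.72 to -2.07, -2.23, -1.93 and -1.91 (2.56-fold lower, limma adjusted p 7.70e-06), and the expansin-like gene EXLA2 was 1.82-fold lower. EXLA2 missed the threshold without expanding replicate 3, without mature replicate 1 or with the covariate (limma adjusted p 0.0884, 0.0525 and 0.0812). The beta-expansin EXPB3 fell by 1.02 ± 0.25, with a spread of -2.74 to -1.08 in mature leaves that rested on replicate 4. The exception was EXPA4, which rose from between 0.13 and 0.31 to between 0.55 and 0.70. EXPA8, which had increased by 3.08 on the log2 scale from primordia to expanding leaves, lay at 1.28 to 1.78 in expanding and 1.05 to 1.93 in mature leaves (0.10 ± 0.26, adjusted p 0.779). Expansin genes thus did not move as 1 group.

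Enzymes of wall polysaccharides split, with 7 of 29 higher and 9 lower, against 19.7% and 24.6% of all probe sets. Their median of -0.09 was near that of all probe sets. The endoglucanase genes GH9B8 and GH9C2 fell by 1.13 ± 0.18 and 0.93 ± 0.15. GH9C2 lay at 2.04, 2.09 and 2.31 in expanding leaves and at 1.63, 1.03, 1.33 and 0.86 in mature leaves. TBL26, of a family of polysaccharide acetyltransferases, showed the largest rise of this list, from 0.34, 0.41 and 0.55 to 2.24, 1.47, 1.66 and 1.96 (2.64-fold). In the cytoskeleton list, TUB7, a beta-tubulin, fell by 0.84 ± 0.15 and ACT11, an actin, by 0.74 ± 0.22, while TUA1, an alpha-tubulin, rose 2.13-fold. TUA1 was at -0.17, -0.14 and -0.11 in the expanding arrays and at 0.54, 1.15, 1.04 and 1.06 in the mature arrays, with no overlap. With the 3′ minus 5′ signal as a covariate ACT11 changed by -0.63 (limma adjusted p 0.0710).

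Regulators of leaf form and marker genes of cell types were few on named probe sets. STOMAGEN, a peptide signal of the inner leaf tissue that promotes stomata, lay at 2.40, 2.23 and 2.51 in expanding and at 1.59, 0.87, 1.03 and 0.66 in mature leaves, a 2.54-fold lower level (limma adjusted p 0.00479). FMA (FAMA), a transcription factor of guard cell differentiation, went from -0.53, -0.58 and -0.60 to -1.06, -1.96, -1.27 and -1.42. The trichome and root hair regulator TRY was at -0.95 to -0.83 in expanding and -0.92 to 0.00 in mature leaves, a change that was not called (adjusted p 0.0792). In whole leaves, fewer cells of a type and less RNA per cell cannot be told apart. YAB3, a regulator of the lower leaf side, fell by 0.48 ± 0.12, and PHV, a regulator of the upper side, changed by -0.09 ± 0.13 (adjusted p 0.618). Among hormone genes, ARR15, a response regulator induced by cytokinin, fell 2.00-fold and GID1A, a gibberellin receptor, rose by 0.68 ± 0.13. ATMYC1, a bHLH factor of epidermal cell fate, was lower at each later stage and lay at -1.49 to -1.35 in expanding and -4.32 to -2.38 in mature leaves.

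Genes of tetrapyrrole synthesis and part of a list of plastid gene expression fell, while most of the listed nuclear genes of photosynthesis were not called. The lists of the latter held only 10 and 5 genes with a named probe set. Of 8 measured genes of tetrapyrrole synthesis 7 fell and none rose, against 24.6% and 19.7% of all probe sets, with a median of -0.65. Of 20 genes of plastid gene expression, chaperonins and organelle RNA processing 12 fell, none rose and 8 were not called, with a median of -0.45. Without dim probe sets 7 of these 12 falls were left. Of 10 nuclear genes of the light reactions 1 rose and 2 fell, with a median of -0.05 and a range of -0.41 to 0.54, and of 5 genes of carbon fixation and photorespiration none was called (limma), with a median of -0.05. The difference between these lists was not tested.

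HEME1, a uroporphyrinogen decarboxylase, lay at 2.35, 2.62 and 2.51 in expanding leaves and between 1.09 and 1.68 in mature leaves. Its level was 2.28-fold lower (-1.19 ± 0.18, limma adjusted p 1.79e-05), and that of its paralogue HEME2 1.76-fold lower. GSA1, which makes the precursor 5-aminolevulinate, went from 3.01, 3.11 and 3.09 to 2.38, 2.14, 2.16 and 2.14. CHLI2, a subunit of the magnesium chelatase that commits the pathway to chlorophyll, fell by 0.69 ± 0.15, HEMB1 by 0.60 ± 0.10 and PORB, a protochlorophyllide oxidoreductase, by 0.55 ± 0.12. The member that was not called was HEMA2, a glutamyl-tRNA reductase, at 0.13 ± 0.15 (adjusted p 0.486). In HEME1, HEME2, CHLI2, HEMB1 and PORB mature replicate 1 was the mature array nearest to the expanding arrays. From primordia to expanding leaves 5 of the 8 genes had risen, against 35.1% of all probe sets, and none had fallen. For the list as a whole the 2 steps had medians of 0.36 and -0.65. Both use the same expanding arrays, whose errors enter the 2 changes with opposite signs, so a rise followed by a fall was not tested.

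In the plastid gene expression list, the RNA-editing factor OTP81 went from -0.37, -0.21 and -0.07 to -1.56, -0.98, -1.71 and -1.34, 2.27-fold lower. CLPP4, a subunit of the stromal Clp protease, fell by 0.52 ± 0.11, and Cpn60beta3 by 0.56 ± 0.13, a smaller change than that of Cpn60beta2. The 12 falls of the list include pentatricopeptide proteins of mitochondria, of which PPR596 fell by 1.24 ± 0.15 and OTP87 by 1.01 ± 0.18. PDF1A and PDF1B, peptide deformylases that trim organelle-made proteins and that entered the defence list through their symbol, fell by 1.05 ± 0.14 and 0.80 ± 0.14. PDF1B lay at 1.91, 2.03 and 1.92 in expanding and at 1.55, 1.05, 1.08 and 0.94 in mature leaves.

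The nuclear genes RCA, PRK, SBPASE, HPR and LHCB4.1 were not called and lay far above the array median at both stages. RCA, Rubisco activase, lay at 5.96, 6.05 and 6.10 in expanding and at 6.09, 5.93, 5.91 and 5.94 in mature leaves, a change of -0.07 ± 0.09 (limma adjusted p 0.551). The groups overlapped, and a change of the size of the error could not be seen here. PRK, phosphoribulokinase, changed by 0.00 ± 0.12, SBPASE by -0.20 ± 0.15, HPR, hydroxypyruvate reductase of photorespiration, by -0.05 ± 0.13 and LHCB4.1, an antenna protein of photosystem II, by -0.02 ± 0.09. Their levels had increased by 0.77 (RCA), 1.57 (PRK), 1.34 (SBPASE), 1.43 (HPR) and 1.02 (LHCB4.1) on the log2 scale from primordia to expanding leaves. The 1 called rise in the light-reaction list was PGRL1B, a protein of cyclic electron flow, which went from between -0.30 and 0.00 to between 0.28 and 0.59.

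**Figure D3:**
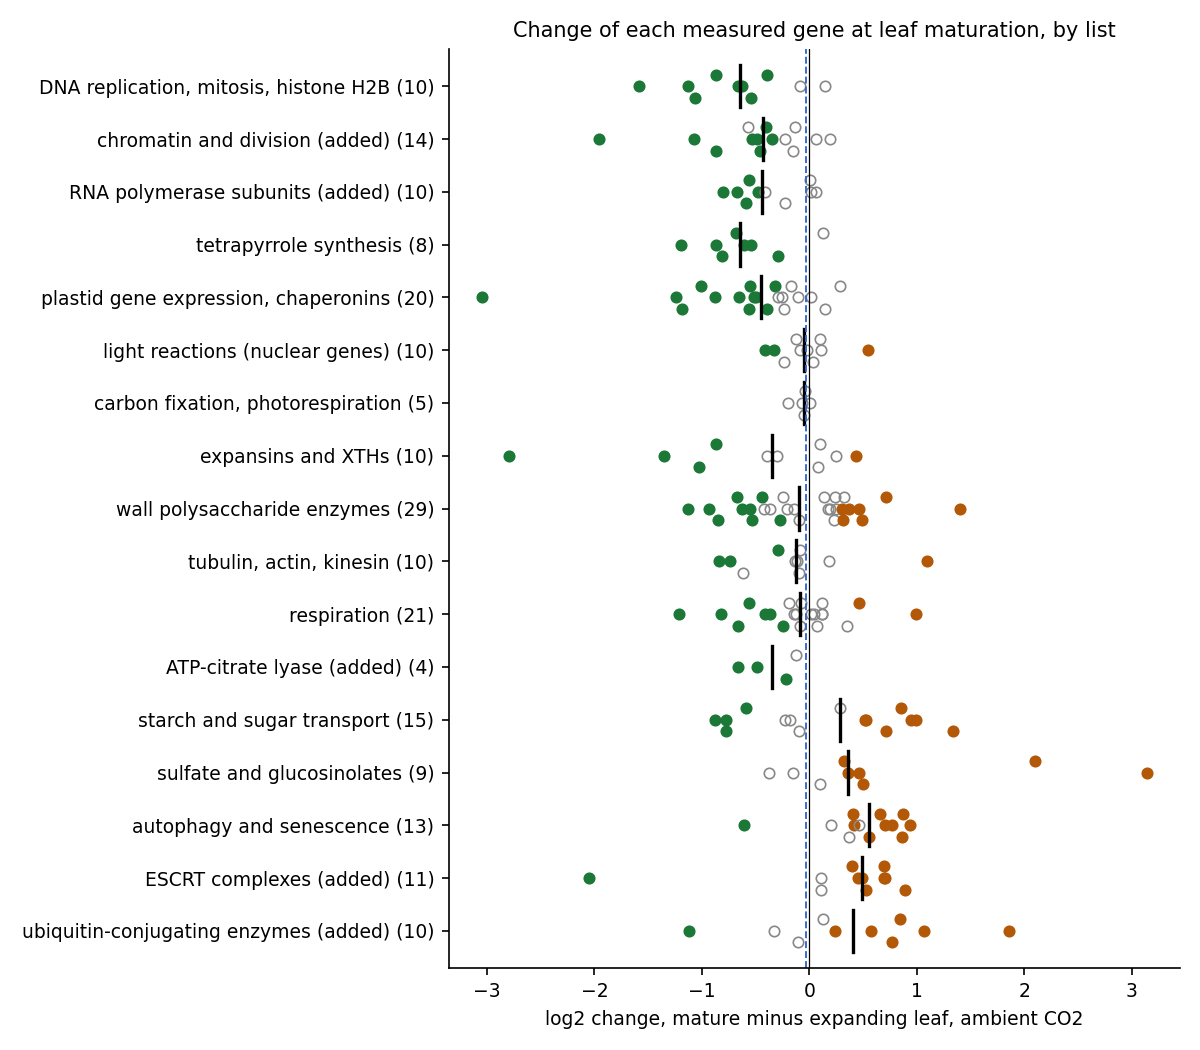
Change of each measured gene from expanding to mature leaves at ambient CO2 (log2, horizontal axis) in 17 gene lists, with the number of measured genes in brackets. Filled points passed an adjusted p under 0.05 (green lower, orange higher), open points did not, black bars are list medians and the dashed line is the median of all probe sets at -0.03. Called members of the first 5 lists were all lower, and most called members of the last 5 lists were higher.

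The genome of the plastid itself was represented by 69 genes, in lists made once the values were at hand. Of these genes 1 rose and 4 fell, against 19.7% and 24.6% of all probe sets, with a median change of -0.04. RNA was amplified from the 3′ end, and whether the signals of plastid-encoded genes follow their transcript levels was not tested. The rise was psbA, which encodes the D1 protein of photosystem II, a protein that is replaced continually in the light. It lay at 2.38, 2.04 and 1.86 in expanding and at 3.74, 3.64, 3.56 and 3.24 in mature leaves, 2.74-fold higher (1.45 ± 0.26, limma adjusted p 0.000123), and its primordia mean was 0.46. The other reaction centre protein of photosystem II, psbD, changed by 0.71 ± 0.36 with overlapping groups (adjusted p 0.114), and rbcL, the large subunit of Rubisco, by -0.17 ± 0.21. The falls were psbN, which went from between 1.77 and 2.22 to between 0.98 and 1.66, and the ribosomal protein genes rps15, rpl33 and rpl22, at -1.06 ± 0.32, -0.74 ± 0.25 and -0.36 ± 0.14. None of these 3 ribosomal protein genes was called without expanding replicate 1 (limma adjusted p 0.0511 to 0.0783). The genes rpl33 and rpl22 also missed the threshold without expanding replicate 2 or mature replicates 2 or 4, and rpl22 without expanding replicate 3 or mature replicate 3. Of the 15 plastid-encoded ribosomal protein genes 14 had values below 0, with a median of -0.33, but 3 were called. In the photosystem II group 12 of 15 values were above 0, with a median of 0.11. The median SE of these 69 genes was 0.22, so that changes of that size could not be told from 0.

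**Figure D4:**
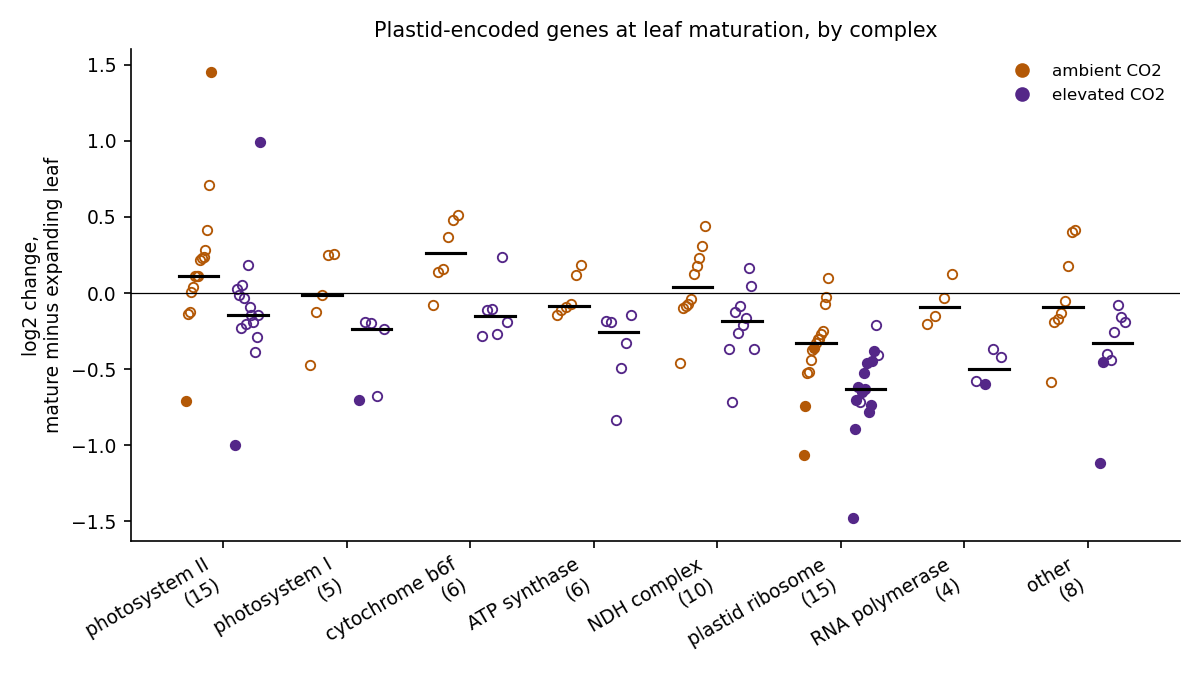
Change of 69 plastid-encoded genes from expanding to mature leaves (log2) at ambient (orange) and elevated (purple) CO2, by complex, with the number of genes in brackets. Filled points were called at an adjusted p under 0.05, open points were not, and bars are medians, and psbA is the filled point above the others in photosystem II.

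Respiration genes were lower in 7 of 21 cases and higher in 2, against 24.6% and 19.7% of all probe sets, with a median of -0.09. After quantile normalization 5 of the 21 were called lower. The 3 measured loci of the pyrophosphate-dependent phosphofructokinase, an enzyme of cytosolic glycolysis, all fell. AT1G12000 lay at 1.11, 1.18 and 1.31 in expanding and at -0.08, -0.13, -0.07 and 0.24 in mature leaves, 2.31-fold lower (limma adjusted p 1.76e-07), AT1G76550 fell by 0.82 ± 0.10 and AT1G20950 by 0.56 ± 0.09. Related genes moved in opposite directions in 2 places. Of the cytochrome c genes CYTC-1 fell by 0.36 ± 0.06 and CYTC-2 rose by 0.46 ± 0.12, and of the alternative NADH dehydrogenases NDB1 fell by 0.66 ± 0.10 while NDB2 rose by 0.99 ± 0.32. The NDB2 arrays overlapped, at -0.89, -1.51 and -2.19 in expanding and -1.41, -0.58, -0.33 and 0.16 in mature leaves, and the rise was 0.66 without expanding replicate 3, 0.76 without mature replicate 4 and 0.60 with the 3′ minus 5′ signal as a covariate (limma adjusted p 0.136, 0.0655 and 0.199). In a fit of the 7 arrays compared alone NDB2 was also not called (limma adjusted p 0.0619). After quantile normalization CYTC-1 changed by -0.16 (adjusted p 0.0898), and with the covariate CYTC-2 missed the threshold (adjusted p 0.0660). Subunits of ATP-citrate lyase, which makes cytosolic acetyl-CoA for lipids, fell in 3 of 4 cases, with ACLB-1 lower by 0.66 ± 0.11. Their list was made once the values were at hand.

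Sugar and starch genes split by family member, with 7 of 15 higher and 4 lower, against 19.7% and 24.6% of all probe sets, and a median of 0.28. SFP1, a sugar transporter, lay at 0.81, 1.10 and 1.45 in expanding and at 2.40, 2.54, 2.38 and 2.52 in mature leaves, 2.53-fold higher (limma adjusted p 0.000429). APL3, a large subunit of the ADP-glucose pyrophosphorylase of starch synthesis, rose by 0.99 ± 0.21, from between -1.26 and -1.18 to between -0.34 and -0.16. Of the SWEET sugar carriers, SWEET17, a fructose carrier of the vacuole, rose by 0.95 ± 0.16 and SWEET2 by 0.71 ± 0.16, while SWEET1 fell by 0.77 ± 0.12 and SWEET4 changed by -0.10 ± 0.22 (adjusted p 0.749). Of the vacuolar sugar importers TMT1 rose by 0.53 ± 0.09 and TMT2 fell by 0.59 ± 0.13. DPE1, which recycles maltotriose in starch breakdown, went from 1.55, 1.69 and 1.81 to 0.90, 0.70, 0.98 and 0.63. Without mature replicate 1, 5 of the 15 genes were called higher.

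Sulfate assimilation and glucosinolate genes were higher in mature leaves in 6 of 9 cases and lower in none, against 19.7% of all probe sets, with a median of 0.36. BCAT4 and APS4 stood far above the remainder of the list. SIR, sulfite reductase, rose by 0.32 ± 0.09, UGT74B1, the glucosyltransferase of the glucosinolate core, by 0.50 ± 0.12 and GTR2, a glucosinolate importer, by 0.46 ± 0.13. GTR1, the partner of GTR2, changed by -0.38 ± 0.18 (adjusted p 0.0886), and APS3, a paralogue of APS4, by 0.10 ± 0.15 (adjusted p 0.620). With the 3′ minus 5′ signal as a covariate 4 of the 9 genes were called higher, and GTR2 was not among them (adjusted p 0.0728).

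Autophagy genes rose together in the ATG8 family. Of 9 measured ATG8 genes 8 rose and none fell, against 19.7% and 24.6% of all probe sets, with a median of 0.71 and a range of 0.36 to 0.94. Among the rises ATG8B, ATG8G and ATG8H were dim. The locus AT3G15580, listed as APG8H, lay at 2.31, 2.14 and 2.15 in expanding and at 3.00, 3.08, 3.19 and 3.29 in mature leaves (0.94 ± 0.13, limma adjusted p 6.38e-06). ATG8F went from 2.61, 2.49 and 2.51 to 3.38, 3.47, 3.44 and 3.28, and ATG8G and ATG8B rose by 0.87 ± 0.18 and 0.77 ± 0.20 from lower levels. ATG8E had overlapping arrays and was not called (0.36 ± 0.17, adjusted p 0.0928). ATG3, the enzyme that conjugates ATG8 to lipid, changed by 0.20 ± 0.09 (adjusted p 0.0644). The wider list of autophagy and senescence genes had 9 of 13 higher and 1 lower. The fall was that of NOL, a chlorophyll b reductase, by 0.61 ± 0.15, and SAG101, a gene named for senescence, changed by 0.46 ± 0.27 with overlapping groups (adjusted p 0.181).

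Ubiquitin-conjugating enzymes and ESCRT proteins, which sort ubiquitin-marked membrane proteins into vesicles of the endosome, rose in most cases. These lists, like that of branched-chain amino acid breakdown below, were made once the values were at hand. Of 10 ubiquitin-conjugating enzymes 6 rose and 1 fell, against 19.7% and 24.6% of all probe sets, with a median of 0.41. UBC29 lay at -1.16, -1.80 and -1.26 in expanding and at 0.27, 0.59, 0.48 and 0.46 in mature leaves, and UBC18 went from between 0.23 and 0.29 to between 1.10 and 1.12. UBC20, a cyclin-selective ubiquitin carrier of mitosis, was the 1 fall, by 1.12 ± 0.14, after a change of -1.77 at the earlier step. Of 11 ESCRT genes 8 rose and 1 fell, with a median of 0.49, led by VPS60.2 (0.89 ± 0.15), VPS22 (0.70 ± 0.10), VPS46.2 (0.69 ± 0.12) and SNF7.1 (0.69 ± 0.11), and 5 rises were left without dim probe sets. VPS2.2, a paralogue of the ESCRT-III subunit VPS2.1, was the exception, at -0.56, -0.47 and -0.32 in expanding and -2.51, -2.62, -1.96 and -2.89 in mature leaves (-2.05 ± 0.20, limma adjusted p 1.78e-07), while VPS2.1 rose by 0.53 ± 0.11. In the list of branched-chain amino acid breakdown ETFALPHA and ETFBETA, the electron transfer flavoprotein, rose by 0.59 ± 0.11 and 0.63 ± 0.12 and IVD, isovaleryl-CoA dehydrogenase, changed by 0.06 ± 0.13 (adjusted p 0.729).

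Stress and defence lists held genes on each side, against 19.7% of all probe sets higher and 24.6% lower. Of 21 genes in the defence list 4 rose and 4 fell with a median of -0.003, but 2 of the falls were the peptide deformylases PDF1A and PDF1B. Of the other 19 genes 4 rose and 2 fell, with a median of 0.19. Of 9 cold and dehydration genes 4 rose and 3 fell with a median of 0.16. PDF1.2, a plant defensin, varied widely between arrays, at -0.27, -1.56 and -1.40 in expanding and 0.38, 0.33, 1.43 and -0.14 in mature leaves, and rose by 1.58 ± 0.42 (limma adjusted p 0.00444). The paralogues COR15A and COR15B, chloroplast proteins of cold acclimation, moved in opposite directions. COR15A went from 1.62, 2.15 and 2.99 to between 3.11 and 3.33 (0.96 ± 0.27), and COR15B from 2.17, 2.65 and 3.24 to between 1.24 and 1.99 (-1.17 ± 0.22). Without expanding replicate 1 the COR15A change was 0.64 (limma adjusted p 0.0680). DI19, a gene induced by dehydration, rose 2.06-fold. Among 16 redox genes 7 rose and 2 fell, with the glutaredoxins GRXC1 and GRXC2 higher by 0.97 ± 0.14 and 0.62 ± 0.08. Of 30 cytochrome P450 and glycosyltransferase genes 7 rose and 4 fell. In the bHLH family, bHLH104, a regulator of iron uptake, rose by 0.85 ± 0.12 and MYC4, a factor of jasmonate response and glucosinolate genes, by 0.74 ± 0.15.

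The same step at elevated CO2, measured in 3 expanding and 4 mature arrays at 750 ppm that the ambient comparison does not use, called 4729 probe sets (37.8%), 2110 higher (16.9%) and 2619 lower (20.9%). With the 3′ minus 5′ signal as a covariate 2345 were called there. In fits of only the arrays compared, 5178 were called at ambient CO2 and 3304 at elevated CO2 (1446 higher and 1858 lower). The elevated calls thus depended more on the common fit than the ambient calls, and the overlaps given here are those of the common fit. Of the ambient calls 3657 were called in the same direction at elevated CO2, and 9 were called in opposite directions. The 3657 are 66.0% of the ambient and 77.3% of the elevated calls. Among the 704 ambient calls of at least 2-fold, 702 had the same direction at elevated CO2 and 662 (94.0%) were called. All 30 of the largest named changes had the same direction and were called. Over all probe sets the changes at the 2 CO2 levels correlated with r = 0.862, a description in which probe sets are not independent, and their SDs were 0.52 and 0.47.

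**Figure D5:**
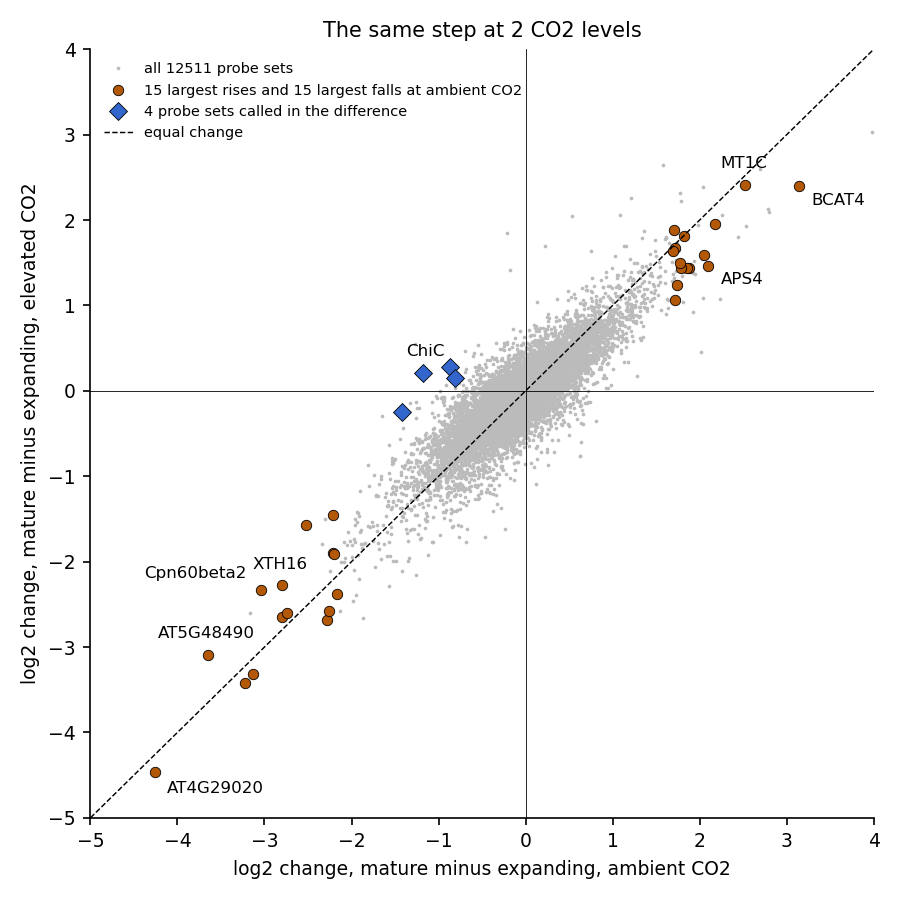
Change from expanding to mature leaves at ambient (horizontal axis) and elevated CO2 (vertical axis), both log2, for all probe sets (grey), the 30 largest named changes at ambient CO2 (orange) and the 4 probe sets called in the difference (blue). The 30 genes lay on the same side of 0 on both axes, and the 4 blue points fell at ambient CO2 and lay closer to 0 at elevated CO2.

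Most of the lists described above had a median of the same sign at elevated CO2. Exceptions were the starch and sugar, respiration and defence lists (medians of -0.07, 0.06 and 0.16 there). The plastid-encoded genes of photosystem II, cytochrome b6f and the NDH complex were exceptions as well. Their medians were -0.14, -0.15 and -0.19 at elevated and 0.11, 0.26 and 0.04 at ambient CO2. At elevated CO2, 7 of 8 tetrapyrrole genes were lower and HEMA2 was higher (median -0.65), 12 of 20 plastid gene expression genes were lower (median -0.44), 7 of 9 ATG8 genes were higher (median 0.56) and 6 of 9 sulfate and glucosinolate genes were higher (median 0.51). In the replication and mitosis list 5 of 10 were lower (median -0.37), and in the RNA polymerase list none was called in limma, against 5 at ambient CO2 (median -0.23 against -0.44). POLA3 changed by 0.00 ± 0.16 at elevated and -0.66 ± 0.16 at ambient CO2, and HTB2 by -0.02 ± 0.10 and -0.40 ± 0.10, but the differences were not called (adjusted p 0.298 and 0.378). The plastid-encoded genes were lower at elevated CO2 in 62 of 69 values, with 17 called lower and 1 higher and a median of -0.27, against 38 of 69 values below 0 at ambient CO2. None of their differences between CO2 levels was called, and the smallest adjusted p among them was 0.500.

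The difference between the steps was called for 4 of the 12511 probe sets (0.032%), and 1275 had an unadjusted limma p under 0.05. The CO2 levels were held in separate chambers, so CO2 level and chamber cannot be told apart in this difference. Single arrays moved this count to 13 without ambient mature replicate 4, to 10 without elevated mature replicate 1, to 7 without elevated expanding replicate 3 and to 2 without ambient mature replicate 1 or 2 or ambient expanding replicate 2. ChiC, a class V chitinase, lay at -1.64, -1.34 and -1.67 in expanding and at -2.82, -3.05, -2.63 and -2.44 in mature ambient leaves. It fell by 1.18 ± 0.17 at ambient CO2 and changed by 0.21 ± 0.17 at elevated CO2 (limma adjusted p of the difference 0.0433). AT1G77550 fell by 0.81 ± 0.10 at ambient CO2 and changed by 0.15 ± 0.10 at elevated CO2 (0.00389), and AT4G36640 fell by 0.87 ± 0.14 and changed by 0.28 ± 0.14 (0.0270). The last was a probe set that the tables used here leave unnamed, at -1.42 ± 0.12 and -0.24 ± 0.12. AT2G38870 was next among the named genes, with -0.18 ± 0.22 at ambient and 1.41 ± 0.22 at elevated CO2, and its difference missed the threshold (adjusted p 0.0830).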

How the data were processed

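Biotin-labelled RNA was hybridised to Affymetrix arrays after amplification from the 3′ end, per the labels' protocols. The deposited values are log2 levels per probe set, centred by the authors on the array median. Base 2 was inferred from the values, and the sources used here do not give the background correction, the summarisation of probes or any filter on probe sets. Of 12570 probe sets 59 controls were left out. Exactly 1 gene was named for 6782 of the other 12511, several for 262 and none for 5467, and names were updated through the TAIR10.1 gene table, which 16 did not match. For list members with several probe sets, the probe set with the highest mean stood for the gene. For other named genes it was the probe set with the smallest limma p at ambient CO2, a choice by the outcome. Several probe sets were present for 48 genes. No coordinates or sequences are printed, since no genome was given.

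The 6 groups were fitted in 1 cell-means model over 22 arrays (16 residual degrees of freedom) with limma 3.58.1 in R 4.3.3, with Benjamini-Hochberg adjustment over all probe sets and two-sided tests. The code was run on simulated data with independent noise and few changed probe sets, all of them higher. That setting differs from this step, where 44.3% of probe sets were called in both directions, so it does not test these calls. Gene lists and members were chosen with earlier results of these data known, and the lists of chromatin, RNA polymerase, plastid-encoded, ATP-citrate lyase, branched-chain, ESCRT, ubiquitin and the families of the closing section (other than ion transport, clock and light, and chaperones) were made once the values were at hand, so they give no independent support. A list's measured genes are those with a named probe set. Named are the 15 largest rises and falls among called genes whose groups did not overlap, the 4 members with the smallest p of a list, all members of lists of up to 8, the 5 smallest p of the difference, and any list member beside its count. Not all of these are printed.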

Additional observations from a re-analysis of the deposited data

Results flagged for a closer look

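In groups of 4 arrays, 1 array can lie far from the other 3 by Dixon's criterion for the gap between neighbours. For the genes named in the text 16 of 270 such groups of mature leaves did so (5.93%), and chance flags about 1 in 20 groups. In 7 of the 16 the array was mature replicate 1 at ambient CO2, which was the highest of its group in XTH16 (-1.81 against -2.63 to -2.55), SBT1.3 (-0.87 against -1.95 to -1.80), ACLB-1 (2.17 against 1.88 to 1.92), GSA1 (2.38 against 2.14 to 2.16), RCA (6.09 against 5.91 to 5.94), SWEET1 (0.23 against -0.07 to -0.03) and SWEET2 (2.03 against 1.66 to 1.72). It is also the array that lay nearest to the expanding leaves on the first principal component. Without it, none of the 114 called genes named here moved by over 1.5 times and the median ratio of the changes was 1.06.

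At ambient CO2 the remaining cases were replicate 4 in AT1G12000 (0.24 against -0.13 to -0.07) and TMT2 (-1.37 against -0.98 to -0.93), and replicate 3 in BUB3.1 (-1.26 against -1.75 to -1.72). In mature leaves at elevated CO2 they were replicate 1 in AT1G76550 (-0.40 against -0.73 to -0.68) and COR15B (1.23 against 0.80 to 0.85), replicate 3 in ChiC (-1.63 against -2.35 to -2.25) and GH9B8 (-1.88 against -1.22 to -1.12), replicate 4 in FMA (-1.33 against -1.91 to -1.82) and replicate 2 in UBC18 (1.09 against 1.45 and above).

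The change from expanding to mature leaves differed between the CO2 levels, and so between the chambers, by limma's test of the difference for 4 probe sets. The change at elevated CO2 exceeded that at ambient CO2 by 1.40 for ChiC, 1.18 for the unnamed probe set, 1.15 for AT4G36640 and 0.96 for AT1G77550 on the log2 scale. For ChiC, the elevated mature replicate 3 that lay apart was the highest of its group.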

How the results depend on the processing

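For the ambient step 16 alternative fits were run, and no named gene that was called turned its sign in them. Among named genes that were not called, 11 turned their sign in 21 pairs of a gene and a setting, for example rbcL (-0.17, and 0.07 after quantile normalization), HPR (-0.05, and 0.03 after it), LHCB4.1 (-0.02, and 0.06 after it), PRK (0.00, and -0.03 with array weights) and SAG101 (0.46, and -0.11 with the covariate). Of 2114 pairs of a named gene and a setting 2072 kept their side of the threshold, 29 lost the call and 13 gained it. Of the lost calls 9 came with the 3′ minus 5′ signal as a covariate, a setting chosen after seeing the data. The first lists are those that were not made once the values were at hand. In the main fit 61 of their 261 genes rose and 79 fell, against 19.7% and 24.6% of all probe sets. Without dim probe sets, which leaves fewer to test, 3391 were called at ambient CO2 (1411 higher, 1980 lower) and 2969 at elevated CO2 (1271 and 1698), and the calls in lists were 4 for replication and mitosis, 0 for wall loosening, 7 for plastid gene expression, 2 for chromatin, 5 for ESCRT and 47 falls over all first lists. With the covariate the elevated step had 2345 calls (994 higher, 1351 lower), the difference 2 and the chromatin list 5. The difference had 7 calls after quantile normalization, 1 in the arrays compared alone, 1 without dim probe sets, 8 with array weights and 2 with the replicate block. At an adjusted p under 0.01 the chromatin list had 5 calls. With a change of at least 2-fold required, few members stayed called, at 3 for replication and mitosis, 4 for plastid gene expression, 1 for tetrapyrroles, 1 for starch and sugar, 2 for sulfate and glucosinolates, 0 for autophagy, 1 for respiration, 2 for chromatin, 0 for ESCRT, 2 for ubiquitin conjugation, and 9 rises and 18 falls over all first lists. The causes were not tested.

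Leaving out 1 array at a time gave 4641 to 5661 calls at ambient CO2 (2034 to 2486 higher, 2576 to 3175 lower), 3551 to 5141 at elevated CO2 (1515 to 2297 and 2036 to 2844) and 2 to 13 in the difference. The falls numbered 8 in replication and mitosis throughout, 3 to 5 in wall loosening, 9 to 12 in plastid gene expression, 6 to 7 in tetrapyrroles, 6 to 7 in respiration and 5 to 9 in chromatin. The rises numbered 5 to 7 in starch and sugar, 5 to 6 in sulfate and glucosinolates, 7 to 10 in autophagy, 6 to 8 in ESCRT and 5 to 6 in ubiquitin conjugation. Over all first lists there were 50 to 58 rises and 64 to 76 falls.

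The labels do not say whether the replicate numbers of expanding and mature leaves mark pairs. Deviations of same-numbered arrays correlated at -0.24, 0.01 and -0.10 at ambient and at -0.02, 0.03 and 0.18 at elevated CO2. Those of arrays with different numbers correlated at -0.17 to 0.21. With 3 and 4 arrays per group these values cannot decide whether the samples were paired. A fit with the replicate block called 5443 probe sets at ambient and 4589 at elevated CO2. The planned search of promoters for motifs was not run, because no promoter sequences were used here. Each array is centred on its median, so a shift shared by most transcripts cannot be seen, and the number of arrays limits the precision.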

Other observations

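Further gene families moved in part, with 19.7% of all probe sets called higher and 24.6% lower at ambient CO2 for comparison. Their lists were made from gene symbols once the values were at hand, except those of ion transport, clock and light, and chaperones. Of 10 measured IQD genes, whose proteins bind calmodulin and microtubules, 6 fell and 1 rose at ambient CO2 (median -0.32, against 24.6% of all probe sets lower), and iqd21 fell by 1.28 ± 0.22 with no overlap between the stages. Serine carboxypeptidase-like genes fell in 6 of 13 cases and rose in 3, with scpl25 lower by 1.23 ± 0.15 and scpl20 higher by 0.97 ± 0.14. The tetraspanin gene TET3, which encodes a membrane protein, lay at 0.52, 0.32 and 0.31 in expanding and at 1.54, 1.79, 1.74 and 1.54 in mature leaves, and 2 of 5 tetraspanin genes rose. Of 8 ion transport genes 4 rose and none fell, among them VHA-A3, a subunit of the vacuolar proton pump, from between 2.32 and 2.34 to between 2.83 and 2.91.

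Other families had members on each side or few calls, against 19.7% of all probe sets higher and 24.6% lower. Genes of RALF peptide signals rose in 2 of 6 cases and fell in 2, exocyst and secretion genes rose in 3 of 9 and fell in 2, bZIP factors rose in 1 of 8 and fell in 1, beta-glucosidases rose in 2 of 6 and fell in 2, ubiquitin proteases fell in 2 of 8, and LSM proteins rose in 1 of 6 and fell in 2. In limma, none of the 3 clock and light genes and neither of the 2 chaperone genes in the lists was called.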
